A study of Mus musculus with 14 samples.

Results

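The genes described here are 40 listed genes of the ATF4 response, which raises amino acid supply and tRNA charging when translation initiation is slowed, and they were examined in RNA sequencing data of murine small intestinal organoids. They were taken by symbol from a table of 18781 genes. A row was found for 39 of them, all 39 were abundant enough to be tested among 12802 genes, and the remaining gene, *Cebpb*, is not analysed here. The study compared 4 WT, 2 *Rnaseh2b* ΔIEC, 4 *Atg16l1* ΔIEC and 4 *Atg16l1/Rnaseh2b* ΔIEC organoid libraries, to ask how loss of autophagy acts on the response to the DNA damage that follows loss of RNase H2. The authors had left out 2 of 4 *Rnaseh2b* ΔIEC samples for a quality problem with their read counts. Organoids are crypt-derived epithelial cultures, and all of them were grown in Intesticult medium without treatment. By their labels, WT organoids carried floxed alleles of both genes and no Cre. *Rnaseh2b* ΔIEC organoids carried the floxed *Rnaseh2b* alleles with 1 copy of Villin-Cre, *Atg16l1* ΔIEC organoids the floxed *Atg16l1* alleles with 1 copy of Villin-Cre, and *Atg16l1/Rnaseh2b* ΔIEC organoids both floxed genes with 1 copy of Villin-Cre. Villin-Cre acts in the intestinal epithelium. The age of the donor mice is not in the labels, and nothing in them says whether the libraries of a genotype came from separate mice or cultures, so p-values measure only the spread between these libraries, which may be technical.

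ATF4 is a transcription factor whose mRNA is translated best when the initiation factor eIF2 is phosphorylated, which happens on amino acid shortage, ER stress, heme shortage or double-stranded RNA. It pairs with C/EBP proteins such as CEBPG, binds composite C/EBP-ATF elements, and switches on enzymes that make serine, glycine, asparagine and proline, amino acid transporters and many cytosolic aminoacyl-tRNA synthetases, the enzymes that load amino acids onto tRNAs. Its secondary regulators include CHOP (*Ddit3*), ATF5, ATF3 and the brakes TRIB3 and GADD34 (*Ppp1r15a*). The intestinal epithelium renews fast and has a high demand for protein synthesis.

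Values are on a log2 scale, and a difference of 1 is therefore a doubling. They are given as deposited, the number of reads behind them is unknown, and the test throughout was limma with Benjamini-Hochberg adjustment over all 12802 genes at 0.05. In bulk RNA, fewer cells of a type and less RNA per cell cannot be told apart. *Rnaseh2b* was at 7.21 and 7.15 in the *Rnaseh2b* ΔIEC libraries and between 7.68 and 7.92 in the *Atg16l1/Rnaseh2b* ΔIEC libraries, against 8.41 to 8.70 in WT. *Atg16l1* ranged from 6.74 to 7.35 in *Atg16l1* ΔIEC and from 8.14 to 8.57 in *Atg16l1/Rnaseh2b* ΔIEC organoids, against 9.43 to 9.54 in WT. The 6 epithelial genes checked, *Epcam*, *Cdh1*, *Vil1*, *Krt8*, *Krt18* and *Krt19*, had WT means from 13.92 to 14.92, and none of the 5 stromal and only 2 of the 5 immune genes looked for were abundant enough to be tested. Libraries did not vary independently within a genotype. Libraries 1 and 2 of a genotype deviated together from its mean, as did libraries 3 and 4, with correlations across genes from 0.41 to 0.86, and the sex read from *Xist* and Y-linked transcripts was shared within a pair. Libraries 1 and 2 of WT, *Rnaseh2b* ΔIEC and *Atg16l1/Rnaseh2b* ΔIEC and libraries 3 and 4 of *Atg16l1* ΔIEC were male, and the others female. By the lane field of the library names, WT was in lane 1, both single knockouts were in lane 2, and libraries 1 and 2 of *Atg16l1/Rnaseh2b* ΔIEC were in lane 2 while libraries 3 and 4 were in lane 1. *Rnaseh2b* ΔIEC, with only 2 libraries of the same sex and lane, was treated as a single pair, which its own values cannot test. In *Atg16l1/Rnaseh2b* ΔIEC organoids the pair, the sex and the lane cannot be told apart.

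In WT organoids the members were expressed at very different levels. Per kilobase of annotated exon, *Atf4* itself stood highest of the 39 with a level of 12.01 on the log2 scale, followed by the proline and ornithine pathway enzyme *Aldh18a1* at 11.93 and the asparaginyl-tRNA synthetase *Nars* at 11.89. The mitochondrial alanine transaminase *Gpt2* at 7.40 and cystathionine beta-synthase, *Cbs*, at 4.56 were lowest on the same scale. *Asns*, asparagine synthetase, reached 11.41 and *Trib3* 10.16 on this scale. The spread of levels between genes was thus far larger than any difference between genotypes described below for the members.

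The promoters of these genes were read for the core of the C/EBP-ATF element, TGATGNAA, on both strands, because it is the sequence that ATF4 and C/EBP proteins are known to bind. RefSeq promoters of build GRCm38.p6, from 250 bases before to 50 bases after the transcription start, matched 33 of the 40 listed genes. The genes *Cth*, *Slc7a5*, *Slc1a5*, *Nars*, *Wars*, *Lars* and *Cars* were not among those matched. The core was found in 11 of the 33, or 33.3%, against 4.51% of all 27025 genes of the promoter table. The members with the core are *Atf3*, *Trib3*, *Chac1*, *Asns*, *Pycr1*, *Got1*, *Aars*, *Gars*, *Iars*, *Yars* and *Tars*. The median difference between *Rnaseh2b* ΔIEC and WT organoids was -0.43 for the members with the core and -0.33 for those without, values given as a description with no test. The windows of 7 of them are shown because these genes lead the results that follow, with the core in capitals and each sequence written 5′ to 3′ on the strand of the gene:
*Trib3*: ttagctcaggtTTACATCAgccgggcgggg
*Chac1*: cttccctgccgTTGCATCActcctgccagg
*Pycr1*: tgccctgtgtaTGATGCAAtgcacaaggct
*Asns*: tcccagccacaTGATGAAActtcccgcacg
*Atf3*: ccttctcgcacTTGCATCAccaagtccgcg
*Iars*: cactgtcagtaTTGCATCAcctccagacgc
*Yars*: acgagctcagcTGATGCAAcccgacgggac
The *Trib3* window is chr2:152344028-152344057 on the minus strand, with the core at bases 15 to 22 after the start. That of *Chac1* is chr2:119351038-119351067 on the plus strand, with the core from -193 to -186. The *Pycr1* window is chr11:120643833-120643862 on the minus strand, with the core from -103 to -96, and the *Asns* window is chr6:7693214-7693243 on the minus strand, with the core from -23 to -16. For *Atf3* it is chr1:191183425-191183454 on the minus strand, from -110 to -103. The cores of *Iars* at chr13:49682126-49682155 and *Yars* at chr4:129189895-129189924, both on the plus strand, lie at bases 8 to 15 and 4 to 11 after the start. *Trib3*, *Chac1*, *Atf3* and *Iars* hold the core in reverse orientation, and *Pycr1*, *Asns* and *Yars* in forward orientation.

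The ATF4 response was lower in *Rnaseh2b* ΔIEC than in WT organoids, which were sequenced in different lanes. All 39 members had a negative difference, 26 passed the test as lower and none as higher, against 12.3% of all genes that passed as lower and 14.4% as higher. The median difference of the members was -0.33 on the log2 scale, and that of all genes 0.00. In 35 of the 39 members both *Rnaseh2b* ΔIEC libraries lay below all 4 WT libraries, an arrangement that 27% of all genes showed. Serine and one-carbon enzymes and tRNA synthetases were the groups with the largest shares, with 5 of 5 and 11 of 12 members lower. With lane as a covariate, described below, only 2 members passed as lower, against 5.56% of all genes, and the median was -0.07. The heat map of members by library shows the 2 *Rnaseh2b* ΔIEC columns as the most uniformly low ones.

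**Figure D1:**
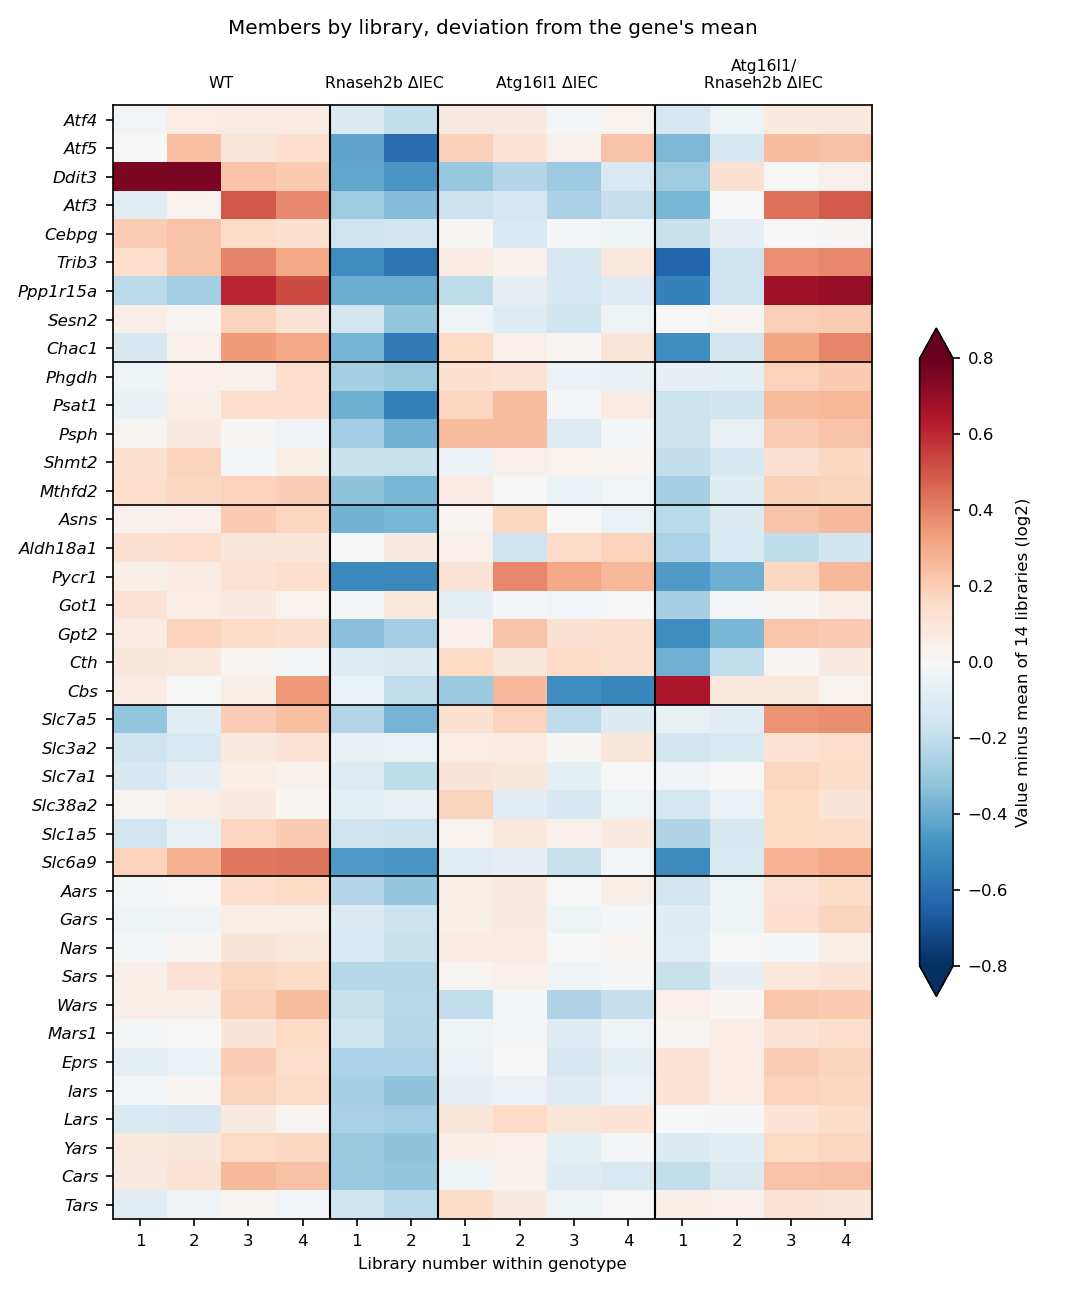
Heat map of the 39 members (rows, in the order regulators, serine and one-carbon enzymes, other amino acid synthesis, transporters, tRNA synthetases) in the 14 libraries (columns, by genotype). Colour gives the log2 value minus the gene's mean over all libraries, cut at 0.8. The *Rnaseh2b* ΔIEC libraries and libraries 1 and 2 of *Atg16l1/Rnaseh2b* ΔIEC are mostly below the mean, with library medians of -0.23, -0.28, -0.17 and -0.07.

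Among the regulators, 7 of 9 were lower in *Rnaseh2b* ΔIEC organoids. *Ddit3* (chromosome 10, 127290774 to 127296288, GRCm38) encodes CHOP, a transcription factor of prolonged stress that promotes cell death. It was at 10.48, 10.48, 9.95 and 9.93 in WT libraries 1 to 4 and at 9.31 and 9.26 in *Rnaseh2b* ΔIEC. In *Atg16l1* ΔIEC it was at 9.42, 9.49, 9.44 and 9.60, and in *Atg16l1/Rnaseh2b* ΔIEC at 9.44, 9.85, 9.73 and 9.76. All 10 knockout libraries thus lay below the lowest WT library. *Rnaseh2b* ΔIEC organoids differed from WT by -0.93, the largest value of any member (standard error 0.15, limma adjusted p = 0.0012).

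*Trib3* (chromosome 2, 152337422 to 152344032), a pseudokinase that binds ATF4 and CHOP and damps their activity, was at 11.12, 11.21, 11.37 and 11.29 in WT and at 10.47 and 10.39 in *Rnaseh2b* ΔIEC. Its *Atg16l1* ΔIEC values were 11.04, 11.01, 10.85 and 11.06. In *Atg16l1/Rnaseh2b* ΔIEC it was split, with 10.34 and 10.81 in libraries 1 and 2 and 11.34 and 11.36 in libraries 3 and 4. The difference between *Rnaseh2b* ΔIEC and WT was -0.81 (standard error 0.21, limma adjusted p = 0.013).

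*Atf5* (chromosome 7, 44812256 to 44816658) encodes a factor whose translation is controlled like that of ATF4 and which serves the mitochondrial unfolded protein response. Its values were 12.23, 12.47, 12.33 and 12.37 in WT, 11.81 and 11.62 in *Rnaseh2b* ΔIEC, 12.42, 12.34, 12.27 and 12.46 in *Atg16l1* ΔIEC and 11.87, 12.10, 12.47 and 12.46 in *Atg16l1/Rnaseh2b* ΔIEC. *Rnaseh2b* ΔIEC was the lowest genotype with no overlap to any other library. Its difference from WT was -0.63 (standard error 0.14, limma adjusted p = 0.0056).

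*Chac1* (chromosome 2, 119351229 to 119354381), an enzyme that degrades glutathione, was at 9.49, 9.66, 9.96 and 9.93 in WT and at 9.24 and 9.05 in *Rnaseh2b* ΔIEC. It was at 9.77, 9.65, 9.63 and 9.71 in *Atg16l1* ΔIEC and at 9.12, 9.47, 9.93 and 10.01 in *Atg16l1/Rnaseh2b* ΔIEC, again with a low and a high pair. The difference of -0.61 between *Rnaseh2b* ΔIEC and WT had a standard error of 0.20 and a limma adjusted p of 0.039. *Sesn2*, a leucine sensor that restrains mTORC1, was at 10.71, 10.67, 10.84 and 10.77 in WT, 10.51 and 10.35 in *Rnaseh2b* ΔIEC, 10.63, 10.56, 10.50 and 10.62 in *Atg16l1* ΔIEC and 10.66, 10.68, 10.85 and 10.86 in *Atg16l1/Rnaseh2b* ΔIEC. It was also lower in *Rnaseh2b* ΔIEC, by -0.32 (standard error 0.07, limma adjusted p = 0.0052).

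*Atf4* itself was lower by a small amount. Its WT libraries were at 13.18, 13.26, 13.26 and 13.27 and its *Rnaseh2b* ΔIEC libraries at 13.09 and 13.002, a difference of -0.20 (standard error 0.06, limma adjusted p = 0.022). Its dimer partner *Cebpg* differed by -0.34 (standard error 0.05, limma adjusted p = 0.00075). *Atf3* and *Ppp1r15a*, both stress-induced immediate regulators, did not pass the test. *Atf3* was at 9.57, 9.68, 10.16 and 10.04 in WT, 9.37 and 9.31 in *Rnaseh2b* ΔIEC, 9.48, 9.52, 9.40 and 9.47 in *Atg16l1* ΔIEC and 9.29, 9.66, 10.10 and 10.15 in *Atg16l1/Rnaseh2b* ΔIEC. *Ppp1r15a*, which encodes a regulatory subunit of an eIF2 phosphatase, was at 9.64 and 9.57 in WT libraries 1 and 2 and at 10.46 and 10.37 in libraries 3 and 4, against 9.45 in both *Rnaseh2b* ΔIEC libraries. For both genes the gap between the WT pairs was of the size of the difference between the genotypes, which was -0.52 for *Atf3* (limma adjusted p = 0.076) and -0.56 for *Ppp1r15a* (limma adjusted p = 0.22).

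The serine synthesis and mitochondrial one-carbon enzymes were all lower in *Rnaseh2b* ΔIEC organoids, by -0.26 to -0.53. This short pathway makes serine from a glycolytic intermediate through PHGDH, PSAT1 and PSPH and passes its carbon to folate through SHMT2 and MTHFD2. *Psat1*, phosphoserine aminotransferase (chromosome 19, 15904678 to 15947337), was at 12.29, 12.40, 12.49 and 12.48 in WT and at 11.96 and 11.81 in *Rnaseh2b* ΔIEC. It was at 12.52, 12.60, 12.34 and 12.41 in *Atg16l1* ΔIEC and at 12.18, 12.19, 12.60 and 12.61 in *Atg16l1/Rnaseh2b* ΔIEC. No other library reached down to the *Rnaseh2b* ΔIEC values, and the difference from WT was -0.53 (standard error 0.12, limma adjusted p = 0.0073). *Mthfd2*, a mitochondrial folate dehydrogenase (chromosome 6, 83305691 to 83325908), had the tightest WT values of the leading members, 11.66, 11.68, 11.70 and 11.71. It was at 11.20 and 11.15 in *Rnaseh2b* ΔIEC, at 11.58, 11.52, 11.46 and 11.49 in *Atg16l1* ΔIEC and at 11.25, 11.42, 11.71 and 11.70 in *Atg16l1/Rnaseh2b* ΔIEC. Its difference between *Rnaseh2b* ΔIEC and WT was -0.51 (standard error 0.10, limma adjusted p = 0.0025). *Phgdh* differed by -0.33 and *Psph* by -0.35, and *Shmt2* by -0.26, with limma adjusted p-values of 0.013, 0.041 and 0.039.

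Of the 7 other amino acid synthesis genes, 2 were lower in *Rnaseh2b* ΔIEC organoids, and all 7 differences were negative. *Pycr1*, the last enzyme of mitochondrial proline synthesis (chromosome 11, 120635712 to 120643769), was at 9.56, 9.57, 9.63 and 9.65 in WT and at 8.998 and 8.993 in *Rnaseh2b* ΔIEC. It was at 9.62, 9.90, 9.82 and 9.78 in *Atg16l1* ΔIEC, and at 9.06 and 9.12 in libraries 1 and 2 but 9.68 and 9.77 in libraries 3 and 4 of *Atg16l1/Rnaseh2b* ΔIEC. The *Rnaseh2b* ΔIEC difference from WT was -0.61 (standard error 0.16, limma adjusted p = 0.016). *Asns* was at 12.79, 12.79, 12.96 and 12.92 in WT and at 12.37 and 12.39 in *Rnaseh2b* ΔIEC, a difference of -0.49 (standard error 0.12, limma adjusted p = 0.0085). *Gpt2* at -0.44 and *Cbs* at -0.24 did not pass, and the enzymes *Aldh18a1*, *Got1*, an aspartate transaminase, and *Cth*, which cleaves cystathionine to cysteine, differed by -0.08, -0.03 and -0.15, also without passing.

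Transporters were the group that moved least. Only *Slc6a9*, the glycine transporter GLYT1 (chromosome 4, 117834506 to 117875198), was lower in *Rnaseh2b* ΔIEC organoids of the 6 tested. It was at 9.88, 9.97, 10.12 and 10.12 in WT, at 9.24 and 9.23 in *Rnaseh2b* ΔIEC, at 9.61, 9.63, 9.51 and 9.67 in *Atg16l1* ΔIEC and at 9.18, 9.57, 9.97 and 9.999 in *Atg16l1/Rnaseh2b* ΔIEC. The difference from WT was -0.79 (standard error 0.17, limma adjusted p = 0.0054). The leucine exchanger subunits *Slc7a5* and *Slc3a2*, the cationic transporter *Slc7a1*, the small neutral transporter *Slc38a2* and the glutamine transporter *Slc1a5* had differences from -0.31 to -0.03, and none of them passed. *Slc6a9* shares 1429 of its 5141 exon bases with *Ccdc24* on the other strand, which is barely present in the table with a mean of -0.72. Other members overlap abundant genes on the other strand. *Psph* shares 10.4% of its exon bases with *Cct6a* (mean 13.08), *Atf5* 4.1% with *Nup62* (11.16) and *Ddit3* 4.0% with *Mars1* (11.96). The effect of these overlaps was not tested.

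Of the 12 cytosolic tRNA synthetases among the members, 11 were lower in *Rnaseh2b* ΔIEC organoids, each by less than the leading regulators. In all 12, both *Rnaseh2b* ΔIEC libraries were below every WT library, and the median difference was -0.32. Only the glycyl-tRNA synthetase *Gars* at -0.15 did not pass (limma adjusted p = 0.11). *Cars*, which charges cysteine tRNA, was at 11.49, 11.52, 11.68 and 11.65 in WT, at 11.12 and 11.11 in *Rnaseh2b* ΔIEC, at 11.38, 11.45, 11.32 and 11.30 in *Atg16l1* ΔIEC and at 11.22, 11.30, 11.64 and 11.65 in *Atg16l1/Rnaseh2b* ΔIEC. Its difference from WT was the largest of the group in *Rnaseh2b* ΔIEC at -0.47 (standard error 0.11, limma adjusted p = 0.0067), followed by *Yars*, for tyrosine, at -0.43 (standard error 0.07, limma adjusted p = 0.0012). *Iars*, for isoleucine, was at 12.70, 12.74, 12.90 and 12.88 in WT and at 12.45 and 12.40 in *Rnaseh2b* ΔIEC. It was at 12.66, 12.67, 12.62 and 12.66 in *Atg16l1* ΔIEC and at 12.83, 12.78, 12.91 and 12.89 in *Atg16l1/Rnaseh2b* ΔIEC. Its difference of -0.38 between *Rnaseh2b* ΔIEC and WT had the smallest adjusted p among the members (standard error 0.05, limma adjusted p = 0.00046).

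**Figure D2:**
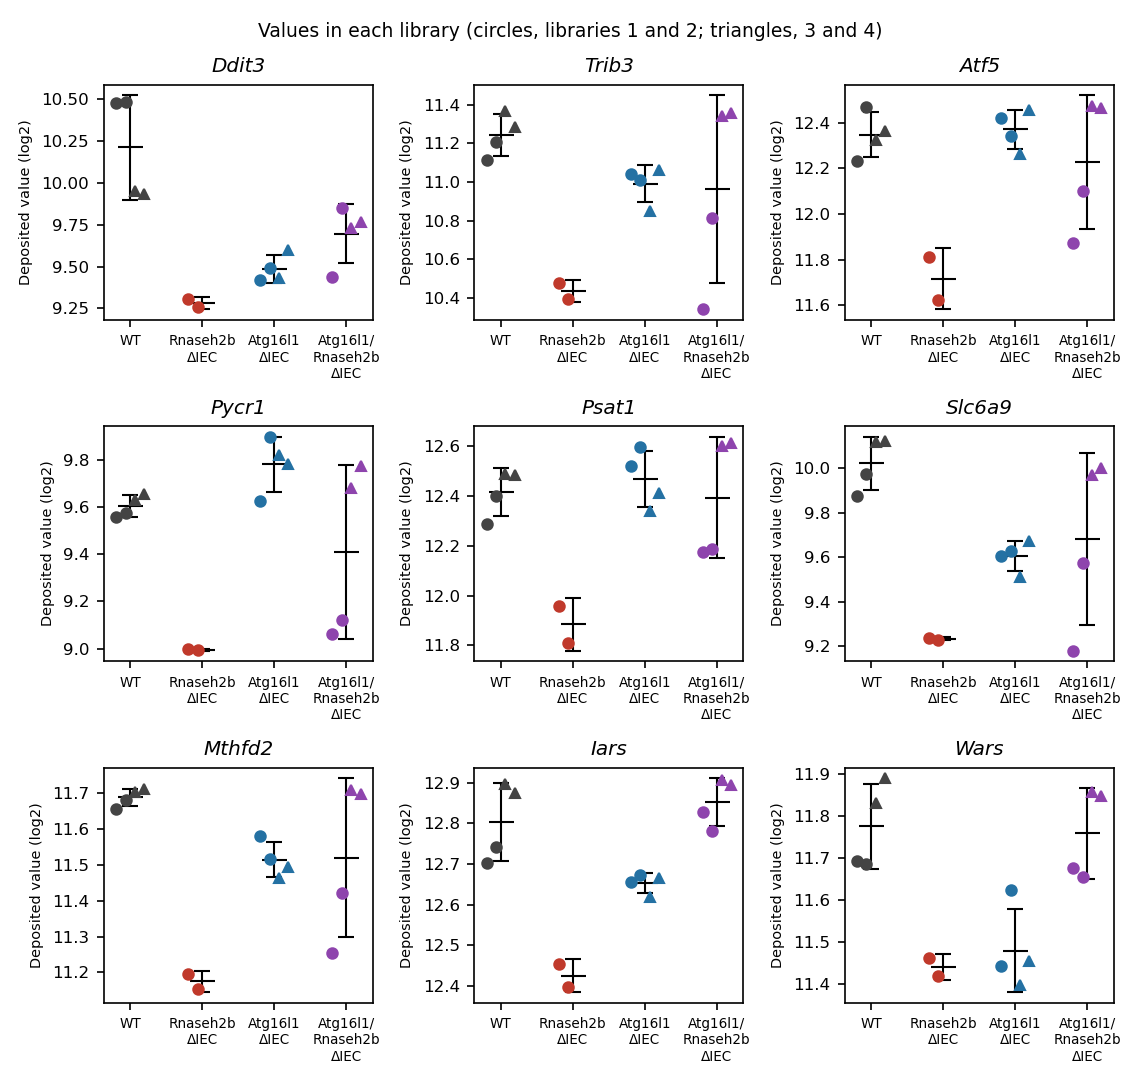
Deposited log2 values of 9 members in each library, with circles for libraries 1 and 2, triangles for libraries 3 and 4, and bars for the mean and SD of each genotype (n = 4, and n = 2 for *Rnaseh2b* ΔIEC). In all 9 panels the *Rnaseh2b* ΔIEC points lie below all 4 WT points, and for *Trib3*, *Atf5*, *Pycr1*, *Psat1*, *Slc6a9* and *Mthfd2* the circles of *Atg16l1/Rnaseh2b* ΔIEC lie below its triangles.

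Genes of the pathway outside the members were listed in the same way. Of all genes, 12.3% were lower and 14.4% higher in *Rnaseh2b* ΔIEC than in WT organoids. Of 19 further ATF4 targets, 13 were lower and none higher, with a median of -0.46. The largest were *Stc2*, a secreted glycoprotein, at -1.31, *Nupr1*, a stress-induced chromatin protein, at -1.07 and *Ddit4*, an inhibitor of mTORC1, at -0.94 (limma adjusted p = 0.0016, 0.011 and 0.0011). Several of these 19 genes, among them *Ddit4* and *Vegfa*, also answer to hypoxia. Of the 8 cytosolic synthetases outside the members, 2 were lower (*Vars* at -0.27 and *Rars* at -0.15) and none higher, with a median of -0.06. Mitochondrial synthetases were 1 lower and 4 higher of 16, with a median of 0.02. The 12 upstream genes, which are the eIF2 kinases, eIF2 and eIF2B subunits and their modulators, counted 3 higher and 1 lower. Their differences ran from -0.31 to 0.35 with a median of 0.06. The lower one was the amino acid sensing kinase *Eif2ak4* (GCN2) at -0.31 (limma adjusted p = 0.0081). Of 15 ER chaperone genes of the XBP1 and ATF6 arms, 4 were lower and 2 higher with a median of -0.12, and *Hspa5*, the chaperone BiP, was at -0.14 without passing (limma adjusted p = 0.12).

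WT and *Rnaseh2b* ΔIEC libraries shared no lane. With lane as a covariate, which rests on the 4 *Atg16l1/Rnaseh2b* ΔIEC libraries alone, only *Ddit3* at -0.83 (limma adjusted p = 0.041) and *Iars* at -0.28 (limma adjusted p = 0.032) of the 39 members still passed as lower, and the median was -0.07. The share of all genes lower in that fit was 5.56%, so the count of members was at the background. *Chac1* and *Pycr1* then had differences of 0.06 and 0.03. Among male libraries alone, where each genotype is a single pair, 30 of 39 members were lower and none higher, with a median of -0.27, against 17.4% of all genes lower and 19.7% higher. The count also depended on both *Rnaseh2b* ΔIEC libraries. When either was left out, fewer members and fewer of all genes passed. The median stayed between -0.36 and -0.30 whichever library was left out. With equal library totals 27 members were lower, but of all genes 16.5% were then lower and 10.9% higher, so the balance of the background shifted to the lower side. Averaging each pair left 0 of 39 members past adjustment in limma, with 19 at an unadjusted p under 0.05, in a fit in which no gene of the whole table passed. Treating the pair as a random block left 13 members lower, against 2.34% of all genes, and *Trib3*, *Atf5*, *Chac1* and *Pycr1* no longer passed (limma adjusted p = 0.081, 0.065, 0.15 and 0.070).

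Markers of cell types moved with this comparison, in which 12.3% of all genes were lower and 14.4% higher. Of 10 enterocyte genes, 9 were higher in *Rnaseh2b* ΔIEC than in WT with a median of 1.02, and 3 of 6 goblet cell genes were lower with a median of -0.52. The library medians of the enterocyte genes, as deviations from the mean of all libraries, were 0.73 and 0.84 in *Rnaseh2b* ΔIEC, -0.42 to 0.20 in WT, -0.21 to 0.49 in *Atg16l1* ΔIEC and -0.65 to -0.11 in *Atg16l1/Rnaseh2b* ΔIEC. Of 4 tuft cell genes 3 were lower with a median of -0.39, of 6 stem cell genes 2 with a median of -0.27, and of 6 proliferation genes 2 with a median of -0.06. The part of cell composition in the lower ATF4 response was not tested.

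*Rnaseh2b* ΔIEC and *Atg16l1* ΔIEC organoids were sequenced in the same lane, so this comparison was made within 1 lane. The ATF4 response was lower in *Rnaseh2b* ΔIEC here too. Of 39 members 37 had negative differences, 11 were lower and none higher, and the median was -0.23, where 2.47% of all genes were lower and 4.34% higher. In 33 members both *Rnaseh2b* ΔIEC libraries lay below all 4 *Atg16l1* ΔIEC libraries, as they did in 17.4% of all genes. The 11 were *Atf5*, *Phgdh*, *Psat1*, *Psph*, *Pycr1* and the synthetases *Aars*, *Nars*, *Iars*, *Lars*, *Yars* and *Tars*. Every one of them was also lower than WT, in a comparison that rests on the same *Rnaseh2b* ΔIEC libraries.

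The largest of these differences was that of *Pycr1*, at -0.79 (standard error 0.16, limma adjusted p = 0.014), followed by *Atf5* at -0.66 (standard error 0.14, limma adjusted p = 0.014) and *Psat1* at -0.58 (standard error 0.12, limma adjusted p = 0.014). *Trib3* at -0.56 and *Chac1* at -0.55 did not pass (limma adjusted p = 0.13 and 0.12). *Ddit3*, the member most reduced against WT, differed by -0.20 from *Atg16l1* ΔIEC (95% interval -0.54 to 0.13), and *Wars*, for tryptophan, by -0.04 (95% interval -0.21 to 0.13).

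The count of 11 rested on the spread taken from all 4 genotypes and on both *Rnaseh2b* ΔIEC libraries. Within lane 2 alone, it was 24 of 39, all lower, against 2.90% of all genes lower and 5.35% higher. Between the male pairs of these genotypes, which share both lane and sex, it was 27 of 39, all lower, with a median of -0.21, against 10.3% of all genes lower and 12.1% higher. With the library pair as a random block it was 1, *Lars* at -0.39 (limma adjusted p = 0.024), against 0.0625% of all genes lower, and *Pycr1*, *Atf5* and *Psat1* had adjusted p-values of 0.083, 0.18 and 0.083 in that limma fit. Without the first or the second *Rnaseh2b* ΔIEC library fewer members and fewer of all genes passed, with medians of -0.24 and -0.22. The count was 15 under equal library totals, where 4.03% of all genes were lower and 3.26% higher. Leaving out 1 *Atg16l1* ΔIEC library gave 5 without library 2 and 7 without library 1 or library 4. Against *Atg16l1* ΔIEC, 4 of 10 enterocyte genes were higher in *Rnaseh2b* ΔIEC, with a median of 0.76, where 4.34% of all genes were higher. Their part in the result was not tested.

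**Figure D3:**
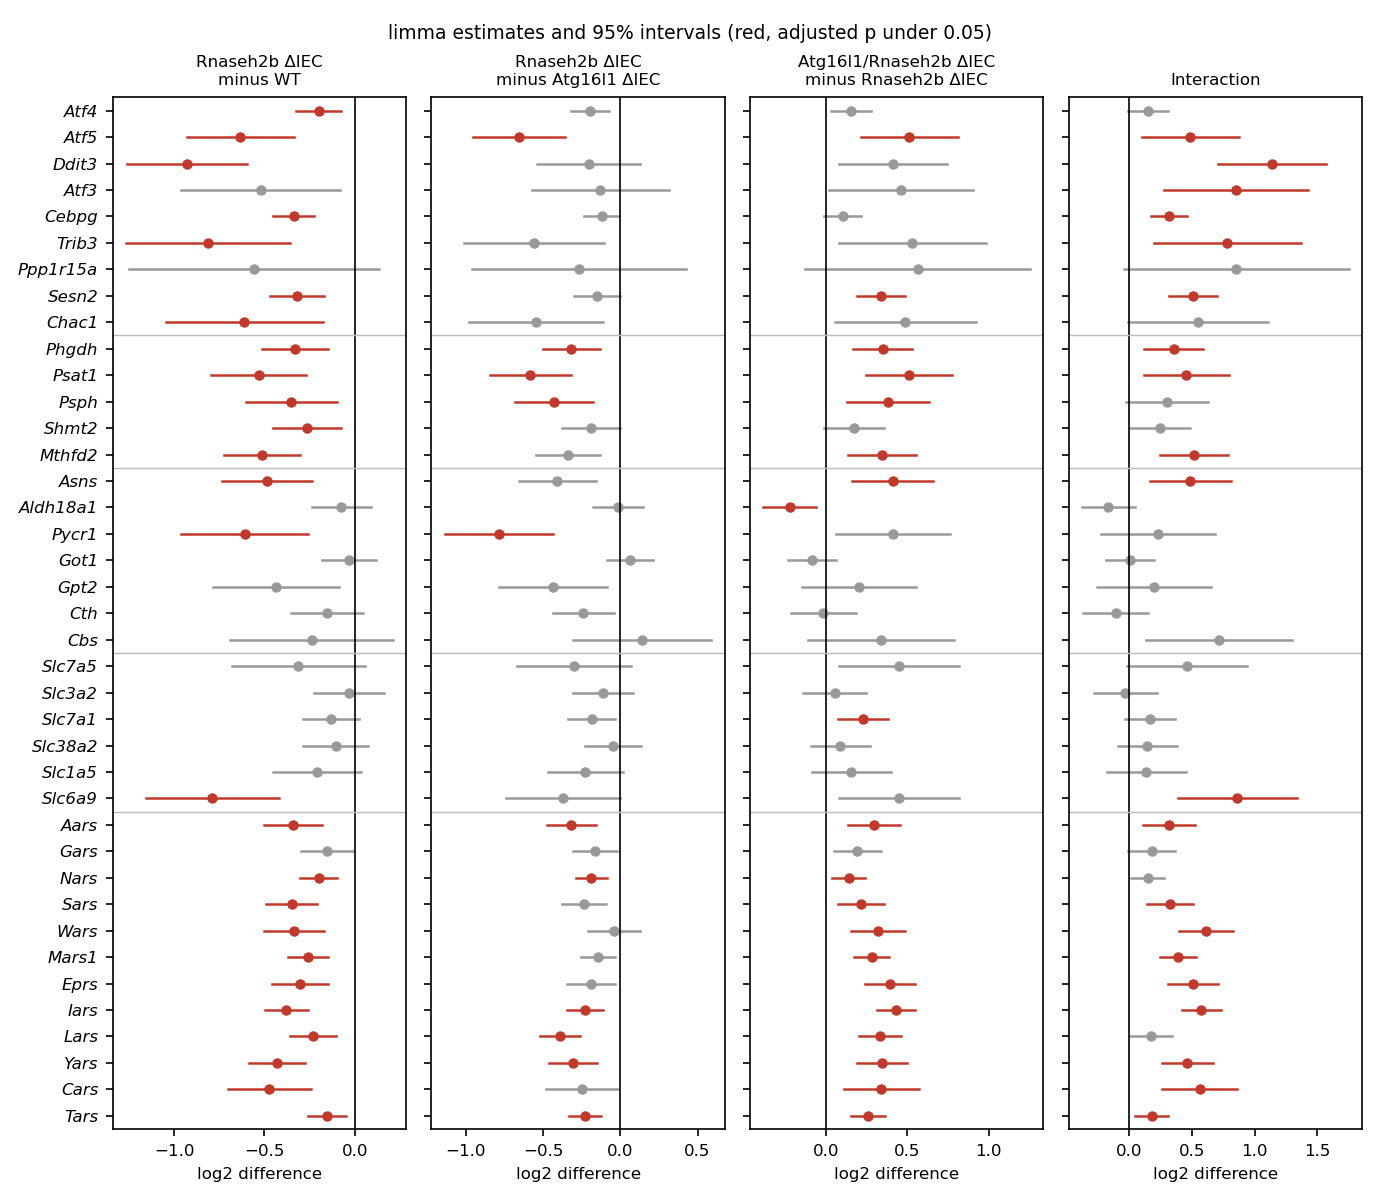
limma differences on the log2 scale with 95% intervals for the 39 members in 4 comparisons, red where the adjusted p was under 0.05, with grey lines between the functional groups. Of the members, 26 are lower in *Rnaseh2b* ΔIEC than in WT and 11 lower than in *Atg16l1* ΔIEC, 19 are higher and 1 lower with both genes deleted than with *Rnaseh2b* alone deleted, and 20 have a positive interaction.

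In *Atg16l1/Rnaseh2b* ΔIEC organoids the response was higher than in those labelled as lacking *Rnaseh2b* only. The remaining *Rnaseh2b* mRNA differed too, being higher by 0.63 with both genes deleted (limma adjusted p = 0.00074), and its part in the result was not tested. Against *Rnaseh2b* ΔIEC, 19 of 39 members were higher and 1 lower in *Atg16l1/Rnaseh2b* ΔIEC organoids, where 11.1% of all genes were higher and 14.4% lower. The median difference was 0.34. This comparison shares the *Rnaseh2b* ΔIEC libraries with the previous ones. By group, 11 of 12 synthetases, 4 of 5 serine and one-carbon enzymes, 2 of 9 regulators, 1 of 6 transporters and 1 of 7 other synthesis genes were higher, and *Aldh18a1* at -0.22 was the member that was lower (limma adjusted p = 0.044).

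For the synthetases every *Atg16l1/Rnaseh2b* ΔIEC library was above both *Rnaseh2b* ΔIEC libraries in all 12 genes. *Iars* was higher by 0.43 (standard error 0.05, limma adjusted p = 0.00034) and *Eprs*, which charges glutamate and proline tRNAs, by 0.39 (standard error 0.07, limma adjusted p = 0.0023). The *Eprs* values were 12.79, 12.81, 13.06 and 13.01 in WT, 12.62 and 12.62 in *Rnaseh2b* ΔIEC, 12.82, 12.87, 12.73 and 12.80 in *Atg16l1* ΔIEC and 12.98, 12.93, 13.07 and 13.05 in *Atg16l1/Rnaseh2b* ΔIEC. Even the low pair of *Atg16l1/Rnaseh2b* ΔIEC thus had more *Eprs* than both male WT libraries. Among the regulators, *Atf5* was higher by 0.51 (standard error 0.14, limma adjusted p = 0.017) and *Sesn2* by 0.34, and among the enzymes *Psat1* was higher by 0.51 (standard error 0.12, limma adjusted p = 0.0096). *Trib3* at 0.53, *Ddit3* at 0.41 and *Chac1* at 0.49 did not pass (limma adjusted p = 0.080, 0.065 and 0.091), with *Atg16l1/Rnaseh2b* ΔIEC standard deviations of 0.49, 0.18 and 0.42 over 4 libraries.

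The *Atg16l1/Rnaseh2b* ΔIEC libraries fell into 2 levels. In 35 of 39 members libraries 1 and 2 were both below libraries 3 and 4, and in none above, whereas 33.7% of all genes were below and 35.5% above. The median difference of the members between the pairs was -0.26 and that of all genes 0.01. It was largest for *Ppp1r15a* at -1.04, *Trib3* at -0.77 and *Chac1* at -0.68, with a median of -0.48 for the 9 regulators and of -0.16 for the 12 synthetases. Members outside this pattern were *Ddit3*, *Aldh18a1*, *Nars* and *Cbs*. The WT pairs, which share lane 1, differed the same way but by less, with libraries 1 and 2 below libraries 3 and 4 in 27 members and above in 6, and a median of -0.12, against 34.4% of all genes below and 32.4% above. The *Atg16l1* ΔIEC pairs, in which libraries 1 and 2 are the female ones, had 19 members above and 1 below, with a median of 0.05, against 29.4% of all genes above and 30.6% below.

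Set against the WT mean, libraries 1 and 2 of *Atg16l1/Rnaseh2b* ΔIEC were lower in 33 of 39 members with a median of -0.22, and libraries 3 and 4 were higher in 30 of 39 with a median of 0.10. *Rnaseh2b* ΔIEC, on the same scale, was lower in 39 of 39. The plot of pairs against WT shows *Trib3* at -0.81 in *Rnaseh2b* ΔIEC, -0.67 in libraries 1 and 2 and 0.11 in libraries 3 and 4 of *Atg16l1/Rnaseh2b* ΔIEC, and *Slc6a9* at -0.79, -0.65 and -0.04. *Iars* did not follow them, being at -0.38 in *Rnaseh2b* ΔIEC but 0.00 and 0.10 in the pairs of *Atg16l1/Rnaseh2b* ΔIEC.

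**Figure D4:**
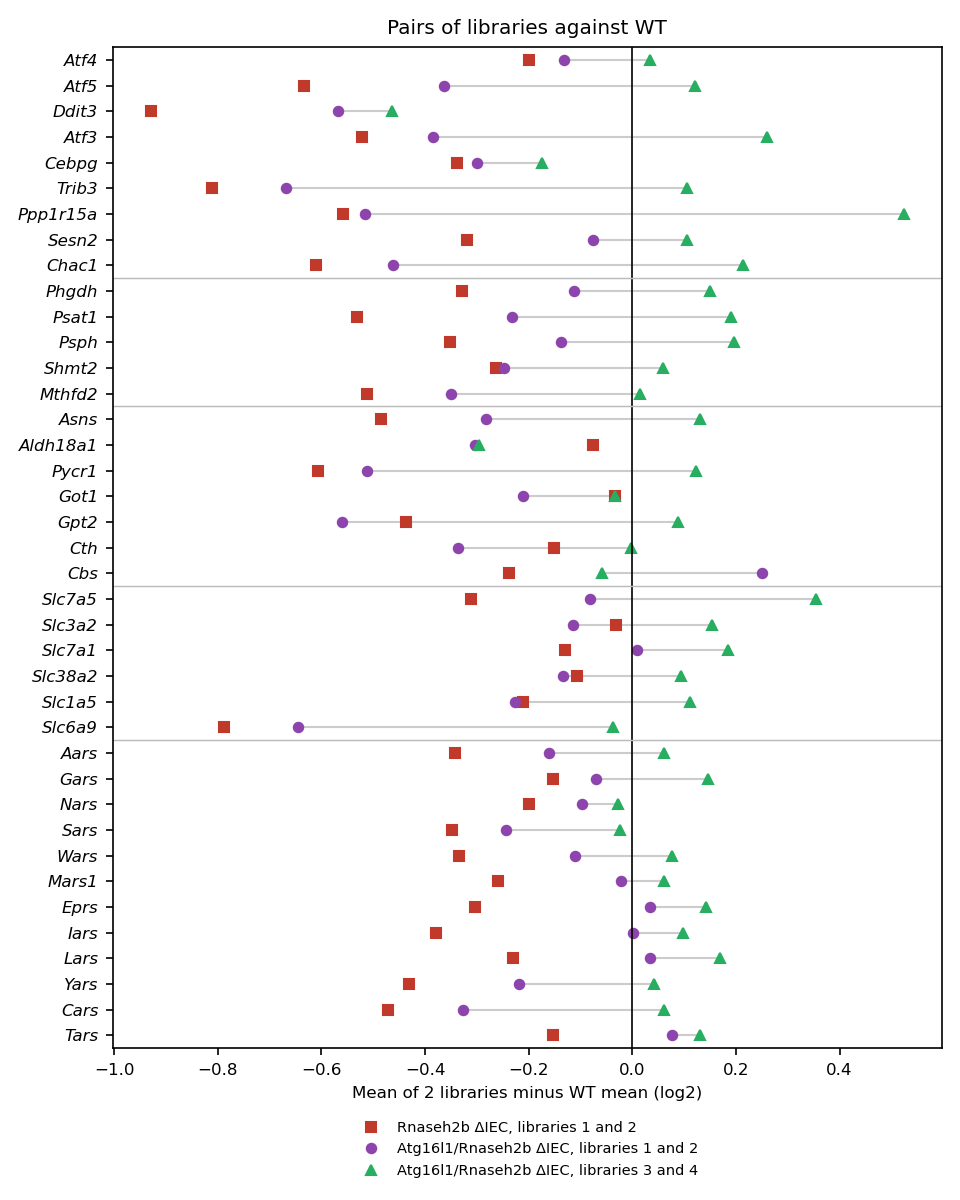
Mean of 2 libraries minus the mean of the 4 WT libraries (log2) for each member, as squares for *Rnaseh2b* ΔIEC, circles for libraries 1 and 2 and triangles for libraries 3 and 4 of *Atg16l1/Rnaseh2b* ΔIEC, joined by a line. Squares are below 0 in all 39 members, circles in 33 and triangles in 9.

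Results that rest on *Atg16l1/Rnaseh2b* ΔIEC therefore differ with the pair used. With libraries 1 and 2 alone, which share lane and sex with *Rnaseh2b* ΔIEC, 10 of 39 members were higher than in *Rnaseh2b* ΔIEC and 1 lower, with a median of 0.14, against 10.1% of all genes higher and 13.2% lower. With libraries 3 and 4 alone, 33 were higher and none lower, with a median of 0.43, against 14.7% and 16.3% of all genes. The median was positive with either pair, but not every member kept its sign. Within lane 2 alone, where only libraries 1 and 2 of *Atg16l1/Rnaseh2b* ΔIEC remain, the members that passed as higher were *Sesn2*, *Psat1* and the 8 synthetases *Aars*, *Eprs*, *Iars*, *Lars*, *Mars1*, *Tars*, *Wars* and *Yars*, with differences from 0.18 to 0.38. With both pairs kept, leaving out the first or the second *Rnaseh2b* ΔIEC library gave medians of 0.34 and 0.30. Fewer members and fewer of all genes then passed. With the library pair as a random block 7 members were higher and none lower, against 1.51% of all genes higher and 3.9% lower, and *Atf5* did not pass (limma adjusted p = 0.13). Equal library totals gave 24 members higher and none lower, with 18.5% of all genes higher and 10.2% lower. Between these genotypes 14.4% of all genes were lower with both genes deleted and 11.1% higher. All 10 enterocyte genes were lower, with a median of -1.21, and the 6 goblet cell genes were all higher, with a median of 0.76. Their part in the higher response was not tested.

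Against WT, *Atg16l1/Rnaseh2b* ΔIEC organoids differed in few members. Of 39, 3 were lower and none higher, against 8.01% and 8.1% of all genes, and the median was -0.06. The lower count was thus near the background. The 3 were *Ddit3* at -0.52 (standard error 0.13, limma adjusted p = 0.017), *Cebpg* at -0.24 (standard error 0.04, limma adjusted p = 0.0046) and *Aldh18a1* at -0.30 (standard error 0.06, limma adjusted p = 0.0081). *Aldh18a1*, which catalyses the first steps of proline synthesis, was at 13.59, 13.72, 13.64 and 13.68 in these organoids and at 13.96, 13.99, 13.94 and 13.94 in WT. In these few genes both pairs were below WT. With libraries 1 and 2 alone 20 members were lower than WT and none higher, against 13.6% and 13.3% of all genes. Within lane 1, which holds WT and libraries 3 and 4, 1 was higher and 2 lower, against 4.66% and 5.58% of all genes. Leaving out library 4 gave 6 members. With the library pair as a random block limma called none, with 3 at an unadjusted p under 0.05, against 0.383% of all genes lower.

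Between *Atg16l1* ΔIEC and WT organoids 6 members passed the test, 5 lower and 1 higher in *Atg16l1* ΔIEC, with a member median of -0.06. Of all genes 10.4% were lower and 8.73% higher, so the lower count was near the background and the higher count below it. *Ddit3* was the largest at -0.73 (standard error 0.13, limma adjusted p = 0.0019), the other lower ones being *Cebpg* at -0.22, *Sesn2* at -0.17, *Wars* at -0.30 and *Iars* at -0.15. *Lars*, for leucine, was the only one higher, at 0.16 (standard error 0.05, limma adjusted p = 0.039), and did not pass with equal library totals. *Wars* was at 11.69, 11.69, 11.83 and 11.89 in WT, 11.46 and 11.42 in *Rnaseh2b* ΔIEC, 11.44, 11.62, 11.40 and 11.46 in *Atg16l1* ΔIEC and 11.68, 11.65, 11.86 and 11.85 in *Atg16l1/Rnaseh2b* ΔIEC. Both single knockouts lay below all WT libraries, and the double knockout overlapped WT, with a difference of -0.02 (95% interval -0.15 to 0.12). With lane as a covariate, 13 members were higher and none lower than WT, against 6.07% and 6.32% of all genes, with a median of 0.20 and *Pycr1* at 0.81 as the largest, so the direction of this comparison depended on the lane correction. Leaving out library 3 or library 4 of *Atg16l1* ΔIEC left 3 members, and without library 1 of *Atg16l1/Rnaseh2b* ΔIEC, which enters only through the shared spread, there were 11. All 6 stem cell genes and 4 of 6 goblet cell genes were lower in *Atg16l1* ΔIEC than in WT, with medians of -0.52 and -0.53, and their part was not tested.

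Against *Atg16l1* ΔIEC, *Atg16l1/Rnaseh2b* ΔIEC organoids had 5 members higher and 2 lower, with 12.6% of all genes higher and 12.5% lower and a member median of 0.00. The higher count was thus near the background and the lower count below it. The higher ones were *Sesn2* and the synthetases *Wars*, *Mars1*, *Eprs* and *Iars*, at 0.13 to 0.28, and the lower ones *Cth* at -0.26 and *Aldh18a1* at -0.24. Libraries 1 and 2 alone gave 1 higher and 13 lower with a median of -0.12, against 13.4% of all genes higher and 13% lower. Libraries 3 and 4 alone gave 14 higher and 1 lower with a median of 0.14, against 12.7% and 11.6% of all genes, so the sign of the median turned with the pair. Within lane 2, *Wars*, *Eprs* and *Iars* were higher and 13 members lower, among them *Pycr1* at -0.69 and *Gpt2* at -0.56, against 12.1% of all genes higher and 12.3% lower. Of the cell type genes, 6 of 6 goblet, 5 of 6 stem and 5 of 7 Paneth cell genes were higher with both genes deleted than with *Atg16l1* alone deleted, with medians of 0.65, 0.56 and 0.63, and 5 of 10 enterocyte genes were lower with a median of -0.57. Their part was not tested. Leaving out library 3 or library 4 of *Atg16l1* ΔIEC left 2 members. The remaining *Atg16l1* mRNA was higher by 1.46 with both genes deleted (limma adjusted p = 2.0e-05), and its part was not tested.

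The effect of *Rnaseh2b* deletion differed with the state of *Atg16l1* in part of the members. The interaction, the difference between *Atg16l1/Rnaseh2b* ΔIEC and *Atg16l1* ΔIEC minus the difference between *Rnaseh2b* ΔIEC and WT, was positive and past the test in 20 of 39 members and negative in none, against 17% of all genes positive and 18.1% negative. Its median was 0.36 over the members and 0.00 over all genes. *Ddit3* had the largest value at 1.14 (standard error 0.20, limma adjusted p = 0.0010), followed by *Slc6a9* at 0.86, *Atf3* at 0.85 and *Trib3* at 0.78 (limma adjusted p = 0.0091, 0.024 and 0.038). Among the synthetases 9 of 12 passed, with *Wars* at 0.61 (standard error 0.10, limma adjusted p = 0.00066), *Iars* at 0.58 (standard error 0.07, limma adjusted p = 0.00010), *Cars* at 0.56 and *Eprs* at 0.51. Of the serine and one-carbon enzymes *Mthfd2* had the largest term at 0.52, and the leucine sensor *Sesn2* was at 0.51. *Rnaseh2b* itself had an interaction of 0.55 (limma adjusted p = 0.0037), its level having differed less from *Atg16l1* ΔIEC in the double knockout than from WT in the single one, so the terms of the members do not rest on equal losses of *Rnaseh2b* mRNA. *Atg16l1* itself had an interaction of 1.40 (limma adjusted p = 0.00022). It was higher by 1.46 in the double knockout than in *Atg16l1* ΔIEC, so its losses were unequal too. With the library pair as a random block 9 members passed, all positive, against 5.3% of all genes positive and 6.83% negative, and *Slc6a9*, *Atf3* and *Trib3* did not (limma adjusted p = 0.055, 0.084 and 0.14).

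Lane enters this term as well, because the 4 means it combines hold unequal shares of each lane. With lane as a covariate the median was -0.09, *Iars* at 0.43 was the only member with a positive interaction past the test (limma adjusted p = 0.016), and *Cth* at -0.61, *Gpt2* at -0.77, *Pycr1* at -0.72 and *Slc3a2* at -0.43 had negative ones. *Trib3*, *Atf3*, *Slc6a9*, *Mthfd2* and *Cars* changed sign. Male libraries alone gave 19 positive and 4 negative members with a median of 0.21, against 22.1% and 24.2% of all genes. Equal library totals gave 23 positive members and no negative one, with 22.9% of all genes positive and 13.9% negative. *Iars* passed in each of these fits, as did *Ddit3* in all but the one with lane as a covariate (limma adjusted p = 0.055). Without the first or the second *Rnaseh2b* ΔIEC library fewer members and fewer of all genes passed than with all libraries, with medians of 0.37 and 0.34. With genotype as the only term, 17% of all genes had a positive interaction and 18.1% a negative one. Enterocyte genes had a negative interaction in 9 of 10 cases with a median of -1.61, and goblet cell genes a positive one in 6 of 6 with a median of 1.27. Their part was not tested.

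Over the 7 comparisons, 30 of the 39 members passed in at least 1 and 9 in none, where 56.1% of all genes passed in at least 1. The 9 were the regulator *Ppp1r15a*, the synthesis genes *Got1*, *Gpt2* and *Cbs*, the transporters *Slc7a5*, *Slc3a2*, *Slc38a2* and *Slc1a5*, and the synthetase *Gars*.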

How the data were processed

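Stranded mRNA libraries of organoids were sequenced, and 14 samples remained for analysis. The authors used cutadapt for trimming, TopHat2 for alignment to GRCm38, HTSeq for gene counts and DESeq2 for their analysis, and they deposited 1 table of log2 values, whose transformation is not named. Read depth cannot be recovered from it, differences of weakly expressed genes are compressed, and the strand setting of the counting is not given in the sources used here. Gene symbols were matched to 99.7% of the identifiers (18721 of 18781). The 12802 genes whose mean log2 value reached 3.32 were fitted with limma 3.58.1 in R 4.3.3, with a mean-variance trend, all 14 libraries and genotype as the only term, and p-values were adjusted by Benjamini-Hochberg over all of them. The limma fit was tested on simulated data in which libraries varied independently, so that test does not cover libraries that deviate together in pairs. Members, gene lists and tests were chosen with earlier results of these data known. All members are named by role, those past the test with a difference of at least 0.5 with values in every library, and at most 3 examples are given per further list. Alternatives covered pseudocounts, filters, scaling, lane, sex, pairs, the replicate number as a block and leaving out each library. Fits restricted to male libraries or to 1 pair were chosen after seeing the data. *Cebpb* is not analysed here.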

Additional observations from a re-analysis of the deposited data

Results flagged for a closer look

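Among 117 sets of 4 libraries, a gene in a genotype, 3 had a library far from the other ones, and chance gives about 1 in 20. The gap to the nearest library, as a share of the range, was 0.909 for *Atf4* in WT library 1, which was the lowest, 0.912 for *Cbs* in *Atg16l1/Rnaseh2b* ΔIEC library 1, the highest, and 0.848 for *Lars* in *Atg16l1* ΔIEC library 2, the highest.

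For 20 of 39 members limma's interaction term passed the test, always positive, against 17% of all genes positive and 18.1% negative. The term compares the effect of *Rnaseh2b* deletion between organoids with and without deletion of *Atg16l1*. With lane as a covariate 1 member was positive and 4 were negative, with a median of -0.09. The losses of *Atg16l1* and *Rnaseh2b* mRNA were not equal between the genotypes combined in the term. The values that follow are without lane as a covariate. Among regulators the term was 1.139 for *Ddit3*, 0.852 for *Atf3*, 0.784 for *Trib3*, 0.507 for *Sesn2*, 0.489 for *Atf5* and 0.319 for *Cebpg*. For enzymes and the transporter it was 0.864 for *Slc6a9*, 0.519 for *Mthfd2*, 0.488 for *Asns*, 0.458 for *Psat1* and 0.358 for *Phgdh*. For synthetases it was 0.614 for *Wars*, 0.578 for *Iars*, 0.562 for *Cars*, 0.508 for *Eprs*, 0.466 for *Yars*, 0.393 for *Mars1*, 0.331 for *Sars*, 0.319 for *Aars* and 0.182 for *Tars*.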

How the results depend on the processing

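Counts are of members past adjustment in limma, out of 39. Pseudocounts, filters and equal library totals kept each of the 7 counts within 1.5 times its reported value. With lane as a covariate they were 2 for *Rnaseh2b* ΔIEC and 13 for *Atg16l1* ΔIEC against WT. Of all genes, 6.19% were higher and 5.56% lower in the former, and 6.07% and 6.32% in the latter. For *Atg16l1/Rnaseh2b* ΔIEC against *Atg16l1* ΔIEC the count was 18, with 15.6% of all genes higher and 15.4% lower. For *Rnaseh2b* ΔIEC against *Atg16l1* ΔIEC it was 23, with 7.69% of all genes higher and 4.98% lower. For the interaction it was 5, with 9.52% of all genes positive and 10.6% negative. The interaction then reversed for *Trib3* (-0.38), *Atf3* (-0.11), *Slc6a9* (-0.0484), *Mthfd2* (-0.0287) and *Cars* (-0.0209), and the difference between *Rnaseh2b* ΔIEC and WT for *Chac1* (0.0644) and *Pycr1* (0.0275). The cause was not tested. Within 1 lane the counts were 10 for *Atg16l1/Rnaseh2b* ΔIEC against *Rnaseh2b* ΔIEC, 16 against *Atg16l1* ΔIEC, and 24 for *Rnaseh2b* ΔIEC against *Atg16l1* ΔIEC. Fits of only the 2 genotypes compared gave 11, 4 and 23 for the same comparisons and 13 for *Atg16l1* ΔIEC against WT. There 7.66% of all genes were higher and 11.5% lower, 7.98% and 8.15%, 4.18% and 2.33%, and 8.22% and 10.4%, in that order. Among male libraries, chosen after seeing the data, the counts were 13 for *Atg16l1* ΔIEC and 22 for *Atg16l1/Rnaseh2b* ΔIEC against WT, 19 for *Atg16l1/Rnaseh2b* ΔIEC and 27 for *Rnaseh2b* ΔIEC against *Atg16l1* ΔIEC. Each genotype is then a single pair, and larger shares of all genes passed in the male fits described above. These counts therefore cannot be set against those from all libraries.

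Also chosen after seeing the data, *Atg16l1/Rnaseh2b* ΔIEC libraries 1 and 2 alone gave 20 against WT, 11 against *Rnaseh2b* ΔIEC and 14 against *Atg16l1* ΔIEC, and libraries 3 and 4 alone 33 against *Rnaseh2b* ΔIEC, 15 against *Atg16l1* ΔIEC and 33 for the interaction. The shares of all genes in these fits are given above, except for the interaction. With the library pair as a random block the counts were 13 for *Rnaseh2b* ΔIEC, 1 for *Atg16l1* ΔIEC and 0 for *Atg16l1/Rnaseh2b* ΔIEC against WT, 7 and 0 for *Atg16l1/Rnaseh2b* ΔIEC against *Rnaseh2b* ΔIEC and *Atg16l1* ΔIEC, 1 for *Rnaseh2b* ΔIEC against *Atg16l1* ΔIEC and 9 for the interaction. The shares of all genes higher and lower were 3.34% and 2.34%, 1.12% and 1.88%, and 0.281% and 0.383% against WT. For the other comparisons, in that order, they were 1.51% and 3.9%, 1.91% and 1.82%, 0.414% and 0.0625%, and 5.3% and 6.83%. With pair means limma gave 0 in all 7, and 19, 3, 3, 13, 4, 10 and 12 at an unadjusted p under 0.05 in that order. The replicate numbers did not pair samples across genotypes, since same-numbered samples deviated with correlations from -0.50 to 0.44 and 3 of 14 samples correlated best with their own number. As a replicate block, they left 11 for *Atg16l1/Rnaseh2b* ΔIEC against *Rnaseh2b* ΔIEC and 2 for *Rnaseh2b* ΔIEC against *Atg16l1* ΔIEC, and the other counts stayed within 1.5 times. Of all genes, 10.1% were then higher and 13.3% lower in the former comparison, and 2.26% and 1.05% in the latter. Leaving out 1 library gave 6 to 28 for *Rnaseh2b* ΔIEC, 3 to 11 for *Atg16l1* ΔIEC and 2 to 6 for *Atg16l1/Rnaseh2b* ΔIEC against WT, 3 to 30 and 2 to 8 for *Atg16l1/Rnaseh2b* ΔIEC against *Rnaseh2b* ΔIEC and *Atg16l1* ΔIEC, 0 to 19 for *Rnaseh2b* ΔIEC against *Atg16l1* ΔIEC and 12 to 27 for the interaction. A lone *Rnaseh2b* ΔIEC library was assumed to vary like the other groups. The lowest counts that involve *Rnaseh2b* ΔIEC came from such fits, in which fewer of all genes passed too. The depth of these libraries is unknown, so its limits could not be given.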

Other observations

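Further ATF4 targets were also examined outside the comparison with WT. Against *Rnaseh2b* ΔIEC, 8 of 19 were higher and none lower in *Atg16l1/Rnaseh2b* ΔIEC organoids, with a median of 0.36, where 11.1% of all genes were higher and 14.4% lower. They were led by the cystine transporter *Slc7a11* at 1.49, *Stc2* at 0.99 and the mitochondrial folate enzyme *Aldh1l2* at 0.71. Against *Atg16l1* ΔIEC, 4 of 19 were lower in *Rnaseh2b* ΔIEC and none higher, against 2.47% and 4.34% of all genes, with *Slc7a11* at -1.35, *Aldh1l2* at -0.89 and the AP-1 repressor *Jdp2* at -0.55. The interaction was positive in 10 of 19 and negative in none, against 17% and 18.1% of all genes, with *Stc2* at 1.77, *Ddit4* at 1.63 and *Nupr1* at 1.32. Of the 8 cytosolic synthetases outside the members, 6 were higher with both genes deleted than with *Rnaseh2b* alone deleted, with a median of 0.16, and of 15 ER chaperone genes 6 were higher and none lower, with a median of 0.15, against the same 11.1% and 14.4% of all genes.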
